A study of Homo sapiens with 20 samples.

Results

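Cytosolic ribosomal protein (RP) genes were examined in HT29 and SW480 cells, a pair of established colorectal cancer lines, after silencing of POLR1D. The members were the gene names made of RPL or RPS, a number and at most one closing letter A, X or L, together with RPLP0, RPLP1, RPLP2 and RPSA. These were 81 of the 36346 gene names in the files, 49 of the large and 32 of the small ribosomal subunit. The value of 78 members, 46 large and 32 small, was at least 10 in at least 4 libraries of each line, and each of these 78 met that filter in both SCR and silenced cells. The other 3, RPL3L, RPL10L and RPL39L, did not reach 10 in any library and were not tested.

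Cells had been transfected with a scrambled control (SCR) or with 1 of 2 siRNAs to POLR1D, siPOLR1D-2 and siPOLR1D-3, and RNA for the 20 libraries was taken at 72 h. HT29 had 4 SCR, 2 siPOLR1D-2 and 2 siPOLR1D-3 libraries, and SW480 had 6 SCR, 3 siPOLR1D-2 and 3 siPOLR1D-3 libraries. Each line stands for 1 tumor. The labels do not say whether replicates were separate transfections, so that p-values measure the spread between these libraries, which may be technical. The values are DESeq2-normalized read counts, set separately for each line, so levels were not compared between lines. Transcripts were captured with exome probes, and fewer cells and less RNA per cell cannot be told apart in such bulk samples.

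POLR1D encodes a small subunit shared by RNA polymerase I, which makes the large ribosomal RNA precursor, and RNA polymerase III, which makes 5S ribosomal RNA and transfer RNAs. The RP genes themselves are transcribed by RNA polymerase II, and their proteins are assembled with ribosomal RNA into the 60S (large) and 40S (small) subunits. Most vertebrate RP mRNAs carry a 5′ terminal oligopyrimidine (TOP) tract, a C at the first transcribed base followed by a run of pyrimidines, through which mTOR signaling controls their translation. POLR1D itself was lower in each of the silenced libraries than in every SCR library of its line. In HT29 its normalized read counts were 6036, 4711, 4433 and 5010 in SCR, 3414 and 3492 with siPOLR1D-2, and 2858 and 2550 with siPOLR1D-3. In SW480 they ranged from 1829 to 2599 in SCR, from 913 to 1336 with siPOLR1D-2 and from 843 to 1174 with siPOLR1D-3. The log2 change of POLR1D was -0.72 in HT29 (SE 0.14, limma adjusted p = 0.355) and -1.04 in SW480 (SE 0.13, limma adjusted p = 0.001).

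The libraries held between 13500000 and 27600000 estimated reads. HT29 SCR replicate 1 stood apart from the other HT29 libraries on the first principal component, and the SW480 libraries fell on opposite sides of theirs, with SCR replicates 1 to 3 and siPOLR1D-2 replicates 1 and 2 on one side and the other 7 on the other. Values without HT29 SCR replicate 1 or within the SW480 sides are given beside the main results. Of 10 markers of colorectal epithelium, 8 had a median of at least 10 in HT29 SCR and 7 in SW480 SCR, while CDX1 stayed below that in both lines. The summed endothelial markers reached at most 143 normalized reads in a library and the summed fibroblast markers at most 878. The immune markers PTPRC and CD3E had medians below 10 throughout, and LYZ supplied nearly all of the immune sum in HT29.

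The transcription starts of the members on which the results turn are shown first, since this is where a TOP tract lies, although not all of them have one. Each line gives 5 bases before the start and 20 from it, read from RefSeq on GRCh38.p14, and capitals mark the uninterrupted C and T run when the first transcribed base is C. The order follows the SW480 response to siPOLR1D-2 described further on, starting with the lowest log2 change, with RPL12, RPS10, RPL21 and RPS27L added for the other results.
RPS3A, chr4:151099623-151099647, plus strand: ttccgCCCTTTTggctctctgacca
RPL3, chr22:39319604-39319628, minus strand: ccggcCTCTaccggcgggatttgat
RPS26, chr12:56041913-56041937, plus strand: acctcgattttcttccgccatccgg
RPL22, chr1:6199576-6199600, minus strand: acctcCCTTTCTaactccgctgccg
RPS23, chr5:82278335-82278359, minus strand: cttctCTCTTTCgctcaggcccgtg
RPL13A, chr19:49487603-49487627, plus strand: tcctcCTTTTCCaagcggctgccga
RPL10A, chr6:35468396-35468420, plus strand: atgctagtctcttttccggttagcg
RPS9, chr19:54200853-54200877, plus strand: cgcgcCTCTTTCTCagtgaccgggt
RPL12, chr9:127451387-127451411, minus strand: tccggCCTCTCggctttcggctcgg
RPS10, chr6:34426050-34426074, minus strand: tccttCCTTTCCagccccggtaccg
RPL21, chr13:27251553-27251577, plus strand: tctttCCTTTCggccggaaccgcca
RPS27L, chr15:63157458-63157482, minus strand: cgagcgcagatcgcttgcagcttgc

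A run of at least 5 pyrimidines opening with C at the first transcribed base was found at 1 or more annotated starts of 46 of the 63 tested members that the RefSeq table holds, or 73.0%. Over all 27305 gene symbols of the table the share was 5.14%. Only the transcribed strand at the annotated start was read, so that RPL10A, whose annotated start lies a few bases before a pyrimidine run, counted as having none. RPL3, with a run of 4, also missed this limit. RPS27L, the paralogue of RPS27 known as a p53 target, has no pyrimidine at its start.

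The family as a whole was asked first. RP genes made up 5.69% to 8.28% of the summed value of an HT29 library and 6.33% to 8.15% of an SW480 library. In HT29 the shares were 8.28%, 6.66%, 6.20% and 5.69% in SCR, 5.84% and 6.82% with siPOLR1D-2, and 6.91% and 6.80% with siPOLR1D-3. The silenced HT29 libraries thus lay within the SCR range, whose highest value came from SCR replicate 1, and without it 3 of the 4 lay above the SCR range of 5.69% to 6.66%. In SW480 the shares ranged from 6.38% to 8.15% in SCR (median 7.39%), from 6.33% to 6.65% with siPOLR1D-2 and from 7.49% to 7.73% with siPOLR1D-3. The siPOLR1D-2 and siPOLR1D-3 libraries of SW480 did not overlap, and those of siPOLR1D-3 lay within the SCR range.

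The balance of large and small subunit mRNA was compared next. In HT29 the large subunit sum was 1.35, 1.32, 1.29 and 1.31 times the small subunit sum in SCR, and 1.28, 1.29, 1.32 and 1.30 times in the silenced libraries. In SW480 it was 1.17 to 1.25 times in SCR and 1.13 to 1.22 times in the silenced libraries. The groups overlapped in both lines, with differences of -0.024 (HT29) and -0.021 (SW480) in mean log2 ratio against SDs of 0.024 and 0.039 among SCR libraries. All 8 HT29 ratios lay above all 12 SW480 ratios.

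**Figure D1:**
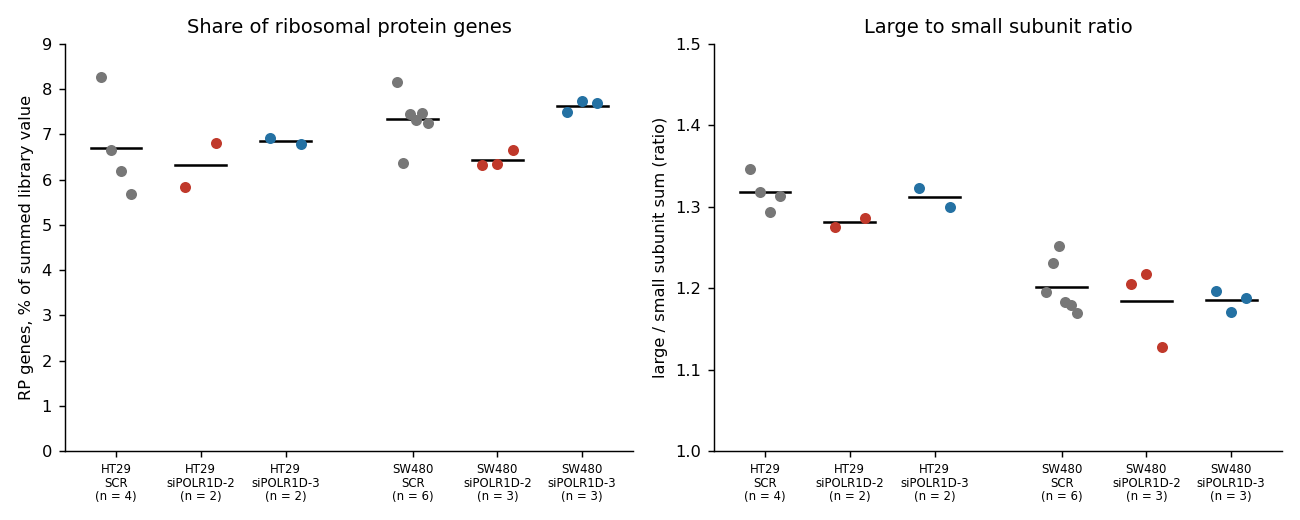
Left, share of the summed library value held by RP genes (%), and right, ratio of the large to the small subunit sum (axis from 1), with 1 point per library and a bar at the group mean. The siPOLR1D-2 libraries of SW480 lie between 6.33% and 6.65%, below those of siPOLR1D-3 at 7.49% to 7.73%, and the ratios of SCR and silenced libraries overlap in both lines.

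In HT29, no RP gene passed the test when all silenced libraries were compared with SCR, nor did any other gene, POLR1D included, so that the 0 does not show that RP genes were unchanged. limma with Benjamini-Hochberg adjustment called 0 of 78 members and 0 of all 13274 genes tested (0%), and at an unadjusted p under 0.05 it found 0 members where 10.7% of all genes met that limit. The median log2 change of the members was -0.098, against 0.000195 over all genes, and 72 members lay below 0 and 6 above where 50% of all genes lay below. This tilt rested on HT29 SCR replicate 1, in which all 78 members were above the SCR mean. Without that library the median was 0.053, with 16 members below 0 and 62 above (50.7% of all genes below). After quantile normalization 40 lay below and 38 above (47.8% of all genes below).

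The smallest unadjusted p among the HT29 members below 0 came from RPL12, RPL10A and RPL41. RPL12, part of the base of the lateral stalk, had 12850, 8143, 7017 and 7353 normalized reads in SCR and 5643, 7324, 7329 and 7111 in silenced cells. Its 2 groups overlapped, with a log2 change of -0.33 (SE 0.19, limma adjusted p = 0.535). RPL10A, a protein of the L1 stalk, had a log2 change of -0.20 (SE 0.14, limma adjusted p = 0.595), and RPL41, the smallest of the RPs, one of -0.17 (SE 0.14, limma adjusted p = 0.639). Among those above 0, the smallest p came from RPS27L (0.13), RPS15 (0.06) and RPS10 (0.04), each with a limma adjusted p of at least 0.777. Without SCR replicate 1 the log2 change was -0.14 for RPL12, -0.07 for RPL10A, -0.06 for RPL41, 0.13 for RPS27L, 0.13 for RPS15 and 0.17 for RPS10, none called.

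In SW480, 1 of 78 members was called, RPL10A, which fell by 0.35 on the log2 scale (SE 0.09, limma adjusted p = 0.0415). The background was 1004 of 15651 genes tested (6.41%), or 4.06% called lower. RPL10A had 6446, 6794, 6973, 7241, 7686 and 8151 normalized reads in SCR, 5229, 4940 and 5135 with siPOLR1D-2, and 6169, 6049 and 6453 with siPOLR1D-3. All silenced libraries were below the SCR median and 5 of 6 were below the lowest SCR value, with p = 0.00433 in a 2-sided exact permutation test. The call did not survive upper quartile scaling (log2 change -0.29, limma adjusted p = 0.0999) or the loss of any of 11 single libraries, and over the 12 fits without 1 library its limma adjusted p ranged from 0.047 (without siPOLR1D-3 replicate 3) to 0.0888 (without SCR replicate 3).

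Over all 78 SW480 members, RPL10A included, the median log2 change was -0.110 against 0.0177 over all genes, with 59 members below 0 and 19 above, where 48% of all genes lay below. With upper quartile scaling 46 lay below and 32 above (40.5% of all genes below), and with quantile normalization 42 and 36 (47.7% of all genes below). Without SCR replicate 1 the median was -0.053, with 48 below and 30 above (49.7% of all genes below). At an unadjusted p under 0.05 stood 13 members, all below 0, 6 large and 7 small (background 22.7% in either direction, 12.4% lower). With upper quartile scaling they were 7, with 2 above 0 and 5 below (background 3695 of 15651 genes). With quantile normalization they were 8, with 2 above and 6 below (background 3654 of 15651 genes). Within the library sides of the first component the median was -0.218 (5 libraries) and 0.000157 (7 libraries). The silenced libraries were 2 of siPOLR1D-2 on the first side, and 1 of siPOLR1D-2 and 3 of siPOLR1D-3 on the second. Side and siRNA therefore cannot be fully told apart here.

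RPL3 and RPL12 came next to RPL10A and were below every SCR library in all 6 silenced libraries, as was RPS27A, the ubiquitin fusion. These were 3 of 78 members (3.85%) where 2.79% of all genes showed that separation. RPL3, a protein close to the peptidyl transferase center, had SCR values from 22982 to 29480 and silenced values from 13267 to 22702, with a log2 change of -0.53 (SE 0.15, limma adjusted p = 0.0569). RPL12 had SCR values from 13956 to 20244 and silenced values from 9442 to 13586, with a log2 change of -0.40 (SE 0.12, limma adjusted p = 0.0676). For both, the exact permutation test gave 2-sided p = 0.00216, the smallest that 6 libraries against 6 allow. Full separation always gives that p, which is not adjusted over genes, so it adds nothing to the separation itself. Above 0, the smallest unadjusted p came from RPS10 (0.21), RPL38 (0.12) and RPL24 (0.11), none of them called.

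**Figure D2:**
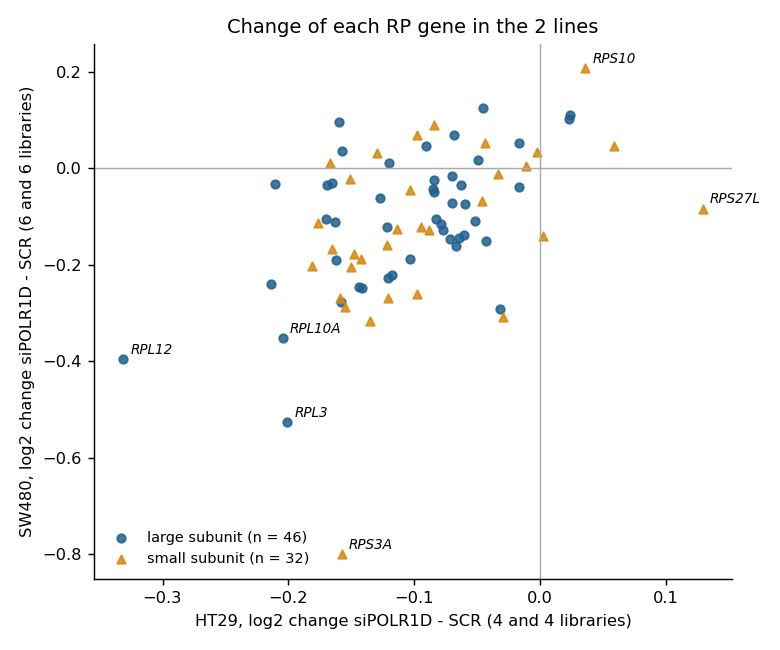
log2 change of each of 78 RP genes between silenced and SCR libraries in HT29 (x axis) and SW480 (y axis), with large subunit genes as circles and small subunit genes as triangles. Most points lie below 0 on both axes, with RPS3A at -0.80 and RPL3 at -0.53 the lowest in SW480 and RPL12 at -0.33 the lowest in HT29. The tilt on the HT29 axis rests on SCR replicate 1, without which 16 members lay below 0 and 62 above.

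The responses of the lines were then compared as an interaction over all 20 libraries. limma called 0 of 78 members (background 6 of 12848 genes, 0.0467%), and 0 had an unadjusted p under 0.05 (background 8.55%). The smallest p among them came from RPS3A, with a response lower in SW480 (difference in log2 change -0.64, SE 0.42, limma adjusted p = 0.719), RPS23 (-0.28) and RPL3 (-0.33). The median difference in log2 change over the members was -0.017, with 45 below 0 and 33 above, where 51.2% of all genes lay below. Without HT29 SCR replicate 1 it was -0.169, with 71 below and 7 above, where 50.3% of all genes lay below. limma then called 0 members (background 9 of 12749 genes). At an unadjusted p under 0.05 stood 2 members, RPL3 at -0.53 and RPS23 at -0.41 (background 1048 of 12749 genes). RPS3A stood at -0.82 (limma unadjusted p = 0.0695).

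Each siRNA was also compared with SCR in SW480. With siPOLR1D-2 alone against SCR, 9 of 78 members fell and none rose (11.5%), where 3.85% of 15130 genes were called and 2.59% called lower. With siPOLR1D-3 alone, limma called 0 of 78 members, where 5.92% of 15325 genes were called, and 1 member had an unadjusted p under 0.05 (background 25.2%). Both comparisons used the same 6 SCR libraries. The median log2 change of the members was -0.157 with siPOLR1D-2 and -0.014 with siPOLR1D-3. With siPOLR1D-2, 19 of 78 members (24.4%) were below every SCR library in all 3 libraries, where 6.85% of all genes were. With siPOLR1D-3 these were 3 of 78 members (3.85%), where 10.8% of all genes were.

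RPS3A, a protein of the small subunit, had the largest change of the 78. In SW480 it had 25717, 18415, 22876, 22233, 23971 and 22489 normalized reads in SCR, 7704, 6268 and 9978 with siPOLR1D-2, and 20464, 22290 and 21099 with siPOLR1D-3. The siPOLR1D-2 libraries were far below all others, whereas those of siPOLR1D-3 lay within the SCR range. With siPOLR1D-2, RPS3A fell by 1.52 on the log2 scale (SE 0.16, limma adjusted p = 0.0038), which left 34.8% of the SCR level. With siPOLR1D-3 its log2 change was -0.08 (SE 0.12, limma adjusted p = 0.688), or 94.5% of the SCR level. Both library sides showed the decrease, with 6268 and 7704 against at least 18415 in SCR on one side and 9978 against at least 22233 on the other. In HT29, RPS3A had 12227 and 16691 with siPOLR1D-2, and 17403 and 16309 with siPOLR1D-3, against 13318 to 24994 in SCR.

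RPL3 followed, with 13267, 14184 and 14137 normalized reads with siPOLR1D-2 and 22702, 22352 and 21445 with siPOLR1D-3. It fell by 0.87 with siPOLR1D-2 (SE 0.12, limma adjusted p = 0.0069), while its log2 change with siPOLR1D-3 was -0.19 (limma adjusted p = 0.308). RPS26, which lines the mRNA exit channel and is mutated in Diamond-Blackfan anemia, had 3119 to 4867 normalized reads in SCR, 2726, 1895 and 2139 with siPOLR1D-2, and 4606, 4075 and 4732 with siPOLR1D-3. RPS26 fell by 0.76 with siPOLR1D-2 (SE 0.16, limma adjusted p = 0.0344), and its log2 change with siPOLR1D-3 was 0.24 (limma adjusted p = 0.310).

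The other 6 members called with siPOLR1D-2 fell by 0.48 to 0.59. They were RPS15A (66.5% of the SCR level), RPL22 (66.8%), RPS23 (66.9%), which lies at the decoding center, RPL13A (69.5%), RPL10A (70.9%) and RPS9 (71.8%). With siPOLR1D-3 the same 6 stood at 97.0%, 99.9%, 97.5%, 102%, 86.5% and 95.8% of the SCR level, with none called. Of the 9 members, 5 belong to the small and 4 to the large subunit. RPL13A, RPL22 and RPS15A were named after their values were seen.

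**Figure D3:**
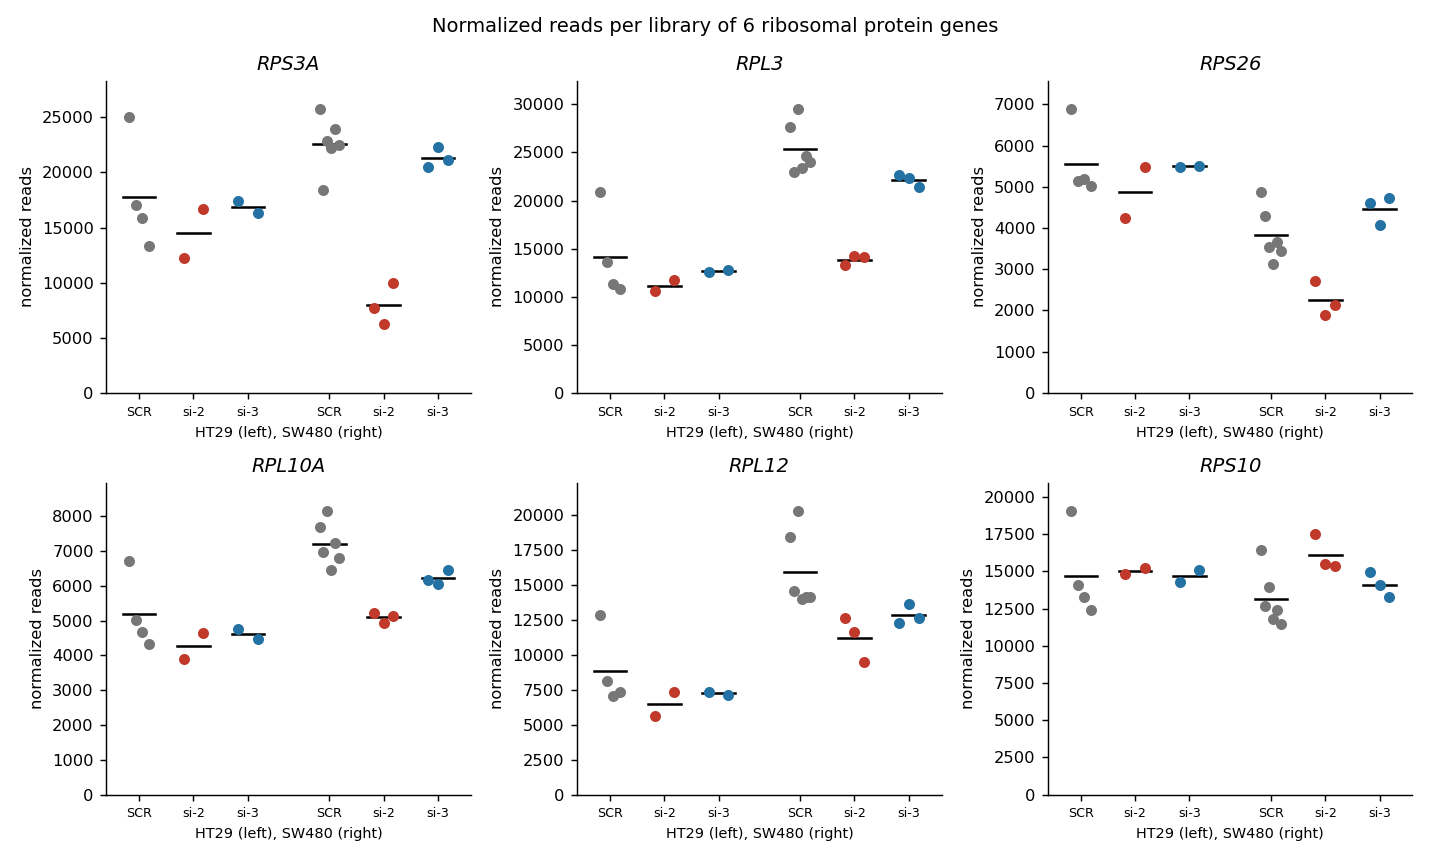
Normalized reads of RPS3A, RPL3, RPS26, RPL10A, RPL12 and RPS10 in each library (1 point each, bar at the group mean), with HT29 to the left and SW480 to the right of each panel and si-2 and si-3 standing for siPOLR1D-2 and siPOLR1D-3. In SW480, the siPOLR1D-2 points of RPS3A (6268 to 9978), RPL3 (13267 to 14184) and RPS26 (1895 to 2726) lie below all SCR and siPOLR1D-3 points.

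The difference between the siRNAs was tested directly in SW480. Of 78 members, 6 were higher with siPOLR1D-3 than with siPOLR1D-2 and none lower (7.69%), where 3.01% of all 15651 genes differed and 1.47% were higher. These 6 were RPS3A (log2 difference 1.44, SE 0.16, limma adjusted p = 0.0035), RPS26 (1.00, SE 0.17, limma adjusted p = 0.0134), RPL3 (0.68, SE 0.12, limma adjusted p = 0.0138), RPL13A (0.55), RPS23 (0.54) and RPS9 (0.42). Values of RPL13A were 59362, 55155 and 64294 with siPOLR1D-2 and 83506, 87968 and 90769 with siPOLR1D-3, and those of RPS23 were 16114, 15097 and 15449 against 20821, 24690 and 22661. RPS9 had 4574, 4288 and 4870 normalized reads with siPOLR1D-2 and 6286, 5872 and 6153 with siPOLR1D-3. In each of the 6 genes the groups did not overlap, but the genes were picked by this test on the same libraries. The share of all genes without overlap was not computed, so this separation is no further evidence.

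RPS3A kept its call in all 18 alternatives of this test. The count over members ranged from 1 to 8 when 1 library was left out, and that over all genes from 39 to 750. Without siPOLR1D-3 replicate 1, 2 or 3 the member count was 1, RPS3A, where 42 of 15507, 39 of 15509 and 50 of 15509 genes were called. Without siPOLR1D-2 replicate 1 or 2 it was 2 (88 of 15557 and 98 of 15539 genes). Without SCR replicate 5 or 6 it was 3 (329 of 15546 and 277 of 15536 genes). All siPOLR1D-3 libraries and 1 of 3 siPOLR1D-2 libraries lay on the same side of the first component, so the side was also fitted as a covariate. This fit called 5 of 78 members, where 210 of 15651 genes were called. POLR1D did not differ between the siRNAs in SW480 beyond its spread (log2 difference -0.10, SE 0.18, limma adjusted p = 0.786).

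**Figure D4:**
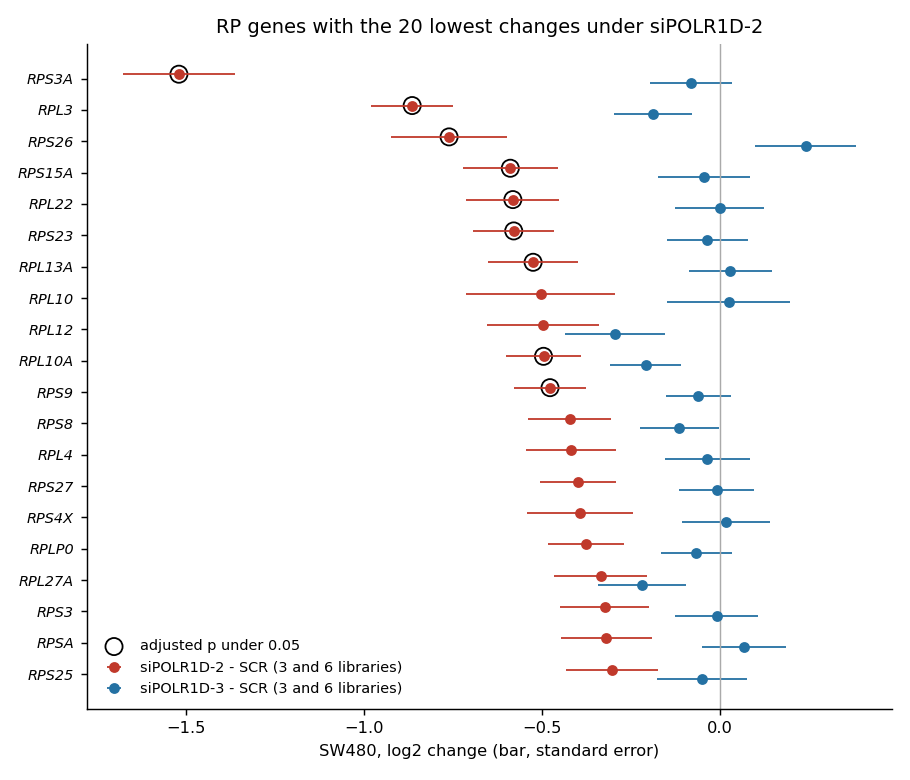
log2 change against SCR with siPOLR1D-2 (red) and siPOLR1D-3 (blue) in SW480 for the 20 RP genes lowest with siPOLR1D-2, with bars for the standard error and black rings for a limma adjusted p under 0.05. The genes were chosen by the siPOLR1D-2 values plotted, and 9 of them are ringed, with RPS3A at -1.52, and none with siPOLR1D-3.

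In HT29, limma called 0 of 78 members between the siRNAs (background 0%), with 0 at an unadjusted p under 0.05 (background 1.56%), from 2 libraries each. The log2 difference of RPS3A was 0.24 there (SE 0.29, limma adjusted p = 1.00). Its siRNA difference was 1.20 larger in SW480 than in HT29 (SE 0.32), which did not pass adjustment over 12848 genes (limma adjusted p = 0.588), and limma called 0 of all genes (0%) and of members, with 3 members at an unadjusted p under 0.05 (background 4.62%).

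Members with roles outside the ribosome were followed by name. RPL5 and RPL11, which with 5S ribosomal RNA can bind and inhibit MDM2, had log2 changes of -0.07 and -0.05 in HT29 and of -0.16 and -0.11 in SW480, none called. RPL5 in SW480 had 28518 to 36600 normalized reads in SCR and 24652 to 31891 in silenced cells, and RPL11 had 32873 to 41555 and 27841 to 41169, so that the groups overlapped. The stalk proteins RPLP0, RPLP1 and RPLP2 had log2 changes of -0.12, -0.16 and -0.09 in HT29 and of -0.22, 0.10 and 0.05 in SW480. RPLP0 was lower with siPOLR1D-2 in SW480 (23749, 24144 and 24655) than in every SCR library (29231 to 35251), while 29786, 29718 and 30404 with siPOLR1D-3 lay within the SCR range, and neither comparison passed adjustment. Without HT29 SCR replicate 1 the HT29 log2 changes were 0.05 for RPL5, 0.03 for RPL11, and 0.10, 0.03 and 0.12 for RPLP0, RPLP1 and RPLP2, so that all turned positive.

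RPS6, the target of S6 kinase, had log2 changes of -0.12 and -0.16 in HT29 and SW480, RPS19, the gene most often mutated in Diamond-Blackfan anemia, of -0.04 and 0.05, and RPSA, the laminin receptor precursor, of -0.11 and -0.13. In HT29 without SCR replicate 1 these were 0.02 for RPS6, 0.16 for RPS19 and 0.06 for RPSA. Over the 12 members on a list of Diamond-Blackfan anemia genes, limma called 0 in either line (background 0% and 6.41%), with 0 at an unadjusted p under 0.05 in HT29 and 1 in SW480 (background 10.7% and 22.7%). RPS26 was the only gene of that list called between the siRNAs in SW480 (1 of 12, background 3.01%).

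The paralogues inside the family had low levels. RPS27L ranged from 225 to 352 normalized reads in HT29 and from 162 to 343 in SW480, with log2 changes of 0.13 and -0.08, while RPS27 ranged from 6670 to 14199 and from 7288 to 11366. RPL3L, RPL10L and RPL39L stayed below 10 beside RPL3, RPL10 and RPL39, whose levels were at least 10622, 23667 and 4916. Several members share near-identical processed pseudogenes, and reads may be split among these copies in ways the deposited files do not show. RPS9, RPS18, RPS25 and RPL7A were each listed on more than 1 row, which were summed. Their log2 changes were -0.12, -0.18, -0.15 and -0.07 in HT29 (0.01, 0.01, -0.01 and 0.07 without SCR replicate 1) and -0.27, -0.11, -0.18 and -0.02 in SW480.

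Among related genes outside the family, RPL22L1, the paralogue of RPL22, fell in SW480. It had 422 to 735 normalized reads in SCR and 269 to 354 in silenced cells, with no overlap and a log2 change of -0.86 (SE 0.15, limma adjusted p = 0.0064). In HT29 its log2 change was -0.19 (limma adjusted p = 0.588), and the difference between the lines was not called (limma adjusted p = 0.329). RPL22L1 was low with both siRNAs (354, 269 and 340, then 293, 313 and 289), while RPL22 had 7907, 5827 and 6685, then 8885, 11981 and 9690. RPL7L1 in SW480 was below every SCR library in 6 of 6 silenced libraries (1681 to 2022 against 2036 to 2573 normalized reads). That separation by itself sets the 2-sided exact permutation p at 0.00216, which is not adjusted over genes. Its log2 change of -0.27 was not called (limma adjusted p = 0.0852). RPL26L1, RPL36AL and the ubiquitin-like fusion gene FAU were not called.

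The 78 mitochondrial RP genes, which encode another ribosome, had median log2 changes of 0.06 in HT29 and 0.03 in SW480. In SW480, 3 rose (MRPL34 by 0.62, MRPL27 by 0.59 and MRPL20 by 0.51) and 2 fell (MRPS18B and MRPL45, with log2 changes of -0.55 and -0.54), which is 6.41% as in the background. For siPOLR1D-3 minus siPOLR1D-2 in SW480 their median log2 difference was -0.275. There 70 of 78 lay below 0, where 49.1% of all genes did, and 1 was called, lower (background 3.01%). Of 17 other TOP mRNAs, such as those of elongation factors, limma called 0 in both lines, with medians of -0.14 and -0.16 and 1 and 6 at an unadjusted p under 0.05 (background 10.7% and 22.7%). Between the siRNAs in SW480 2 of these 17 (11.8%, background 3.01%) were called, EIF4A2 (lower with siPOLR1D-3 by 0.97, difference -0.97) and NAP1L1 (higher by 0.64). The HT29 medians of the mitochondrial and TOP lists include SCR replicate 1 and were not computed without it.

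Changes were also set beside the TOP feature. The median log2 change in SW480 was -0.112 over the 46 with the run and -0.122 over the 17 without, and in HT29 it was -0.115 and -0.085. These HT29 medians include SCR replicate 1 and were not computed without it. The HT29 median over all 78 members was 0.053 without that library. Of the 6 genes that differed between the siRNAs, RPS3A, RPL13A, RPS23 and RPS9 have the run in the sequences above, while RPL3 and RPS26 do not reach it.

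The makeup of the RP pool was then compared between the lines. As a share of the summed RP value, which removes the separate normalization, RPL21 made up 5.98% to 6.99% in HT29 SCR libraries and 2.02% to 2.67% in SW480 SCR libraries. Its median share was 2.85 times as high in HT29, the largest ratio in either direction among tested members. In silenced libraries its share was 6.31% to 6.75% in HT29 and 1.92% to 2.79% in SW480. RPL21, on chromosome 13 (27251309 to 27256691, GRCh38), lies 364051 bases before POLR1D (27620742 to 27744237), in the chromosome region 13q12 that the study examined for amplification. The study reports a focal amplification within this region in HT29 and a gain of the entire chromosome in SW480. Its text does not state whether the amplified stretch of HT29 includes RPL21. Gene copy number was not measured in these libraries, and the part of copy number in the share was not tested.

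RPL24, RPS26 and RPLP2 had shares 1.96, 1.89 and 1.85 times as high in HT29, and RPL26 and RPS14 had shares 1.81 and 1.78 times as high in SW480. In all, 38 of 78 members had shares without overlap between the SCR libraries of the lines, 17 higher and 21 lower in HT29. The same quantity over all 12848 genes tested in both lines did not overlap for 31.8% (16.7% higher, 15.1% lower).

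Per kilobase of the longest principal transcript in GENCODE 29, the SCR median level was lowest among tested members for RPS27L (42.0 normalized reads per kilobase in HT29 and 37.8 in SW480). RPL9 was the next lowest (506 and 571), and the median member had 9861 and 13484.

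**Figure D5:**
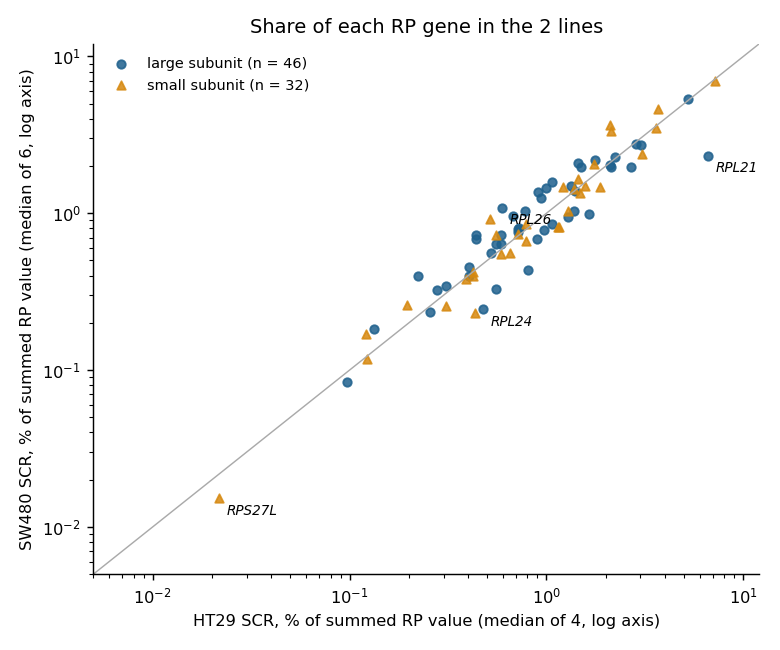
Median share of each of 78 RP genes in the summed RP value of SCR libraries (%, log axes), HT29 on the x axis and SW480 on the y axis, with the line of equal shares. RPL21 lies farthest below that line, at 6.64% in HT29 and 2.33% in SW480, and RPS27L lies at the lower left.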

How the data were processed

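RNA of HT29 and SW480 cells was captured with TruSeq RNA Exome probes and sequenced as paired ends. According to the submitters' notes and the study's methods, the authors ran FastQC 0.11.5, quantified reads with kallisto 0.44.0 (hg38) and normalized them with DESeq2 1.24.0, and the deposited signal values are those normalized read counts, which are not whole. The kallisto index is not given in the sources used here.

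The members and lists were chosen with earlier results of these data known. Rows with 1 name were summed over 40117 rows. Genes reaching 10 in 4 or more libraries of a line were fitted per line with limma 3.58.1 (R 4.3.3) on log2(value + 1), with a mean-variance trend and no covariate, which understates changes of low genes. p-values were adjusted by Benjamini-Hochberg over all genes tested, and an adjusted p under 0.05 was called. Single genes were compared by exact permutation tests. On simulated data the fit recovered 49% (HT29, 13274 genes) and 55% (SW480, 15651 genes) of log2 changes of 1, and 85% and 76% of changes of 2.

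Named members were, per line, up to 6 called members per direction (where fewer than 3, the 3 with the smallest p), RPLP0, RPLP1, RPLP2, RPL5, RPL11, RPSA, RPS6, RPS19, the paralogue pairs, members on several rows, and up to 3 members per interaction and siRNA test. RPL21, RPL22 and the other members called with 1 siRNA were chosen after their values were seen, and of the lists up to 3 called genes. A few genes that these rules name are not reported here. Reads were estimated as the summed value divided by the commonest low value. Alternatives were other scalings (upper quartile, quantile, common sum), pseudocounts of 0.1 and 5, other filters, fits without trend or with robust variances, the replicate block, each siRNA alone, each library left out and the component sides. Precision for single genes rests on the spread between libraries, as reads behind a gene are unknown. Replicate numbers did not pair the samples on average (mean correlation of deviations for shared numbers -0.030 in HT29 and -0.075 in SW480). Single SW480 pairs with a shared number ranged from -0.39 to 0.557. RefSeq starts were found for 63 of 78 members.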

Additional observations from a re-analysis of the deposited data

Results flagged for a closer look

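In SW480, 6 members differed between siPOLR1D-2 and siPOLR1D-3 by a test of the difference itself, RPS3A (1.44), RPS26 (1.00), RPL3 (0.68), RPL13A (0.55), RPS23 (0.54) and RPS9 (0.42), all log2 differences of siPOLR1D-3 minus siPOLR1D-2 and all called by limma.

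In 140 groups of named values, 14 held a library far from the others of its group (Dixon's test, which chance meets in about 1 of 20 groups). HT29 SCR replicate 1 was the highest of 4 for RPL41 (11806 normalized reads), RPL11 (33503), RPS6 (25227), RPL39 (8676), RPS25 (11052) and RPS26 (6877). HT29 siPOLR1D-2 replicate 1 was the lowest of 4 silenced libraries for RPL12 (5643), RPL39 (4916), RPS26 (4242) and the RP share of the library (5.84%), and siPOLR1D-2 replicate 2 the lowest for RPS19 (19734). In SW480, SCR replicate 2 was the lowest for RPS27 (9299), siPOLR1D-3 replicate 2 the highest for RPS6 (26519) and siPOLR1D-2 replicate 3 the lowest for RPL7A (19410).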

How the results depend on the processing

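In HT29, limma called 0 members in every alternative run. The single SW480 call was lost, leaving 0 members, with upper quartile, quantile and common sum scaling, with both weaker filters on low values, without the mean-variance trend, with siPOLR1D-3 alone and within each side of the first component (0 and 0). Over all genes the main fit called 1004 of 15651, and the side fits called 0 of 13871 and 1922 of 15142. The member count became 9 with siPOLR1D-2 alone (582 of 15130 genes) and 4 with the side as a covariate (1977 of 15651 genes). It was between 0 and 1 without single libraries, where 525 to 1262 of all genes were called. The cause was not tested. Members called between the siRNAs in SW480 fell from 6 to 3 with a minimum value of 1, where calls over all genes went from 471 of 15651 to 356 of 21652. Without single libraries they ranged from 1 to 8, and calls over all genes from 39 to 750. With the replicate number as a block, 0 members were called in both lines (735 of all genes in HT29 and 0 in SW480) and the member medians were -0.317 and -0.155, though the numbers did not pair the samples on average. The HT29 member median ranged from -0.207 to 0.053 without single libraries, positive only without SCR replicate 1, and the SW480 median from -0.138 to -0.053. The differences in log2 subunit ratio ranged from -0.034 to -0.014 and from -0.029 to -0.007. Named members changed sign, without a call, in 63 of 693 values in HT29 and 52 of 924 in SW480. The spread between libraries limits what small changes can be called, with a median SD of the members among SCR libraries of 0.32 (HT29) and 0.18 (SW480) on the log2 scale, and the reads behind a gene are unknown.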
